A study of Mus musculus with 12 samples.

Results

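Selenoproteins carry selenocysteine (Sec), a cysteine with selenium in place of sulfur. Of the mouse selenoprotein genes, 10 were examined here in activated CD4 T cells, *Selenop*, *Selenow*, *Selenok*, *Selenos*, *Selenot*, *Selenof*, *Gpx1*, *Gpx4*, *Txnrd1* and *Txnrd2*. All 10 were found by symbol or Ensembl identifier among the 49585 genes counted in each of 12 libraries, and all 10 passed the filter on low counts. They were selected on membership of the family, by a list made with earlier total RNA and RPF fold changes of this experiment known, so their genotype differences are given as a description, without p-values. Where a value of theirs is said to pass the threshold, this too is a description and not evidence for a change. The 14 other mouse selenoprotein genes are given beside them. All other gene lists were also chosen with earlier results of these data known. Adjusted p-values printed for their genes are therefore a description as well, and not independent evidence.

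CD4 T cells were isolated with a naive CD4 T cell kit from the lymph nodes of *Rnmt* cKO and control mice, with 3 samples of each, and cultured for 20 h on plates coated with anti-CD3 (5 ug/ml) and anti-CD28 (1 ug/ml). RNMT is the methyltransferase that completes the 7-methylguanosine cap of mRNA. Mice of both groups were female, on a C57B6/J background and homozygous for an *Rnmt* allele in which exon 3 lies between loxP sites (*Rnmt* fl/fl), and only the *Rnmt* cKO mice carried CD4cre, which becomes active in developing thymocytes. RNMT made before the deletion may persist in part in the T cells. Both groups received cycloheximide at 0.1 mg/ml for 1 min before lysis. Total cytoplasmic RNA and ribosome-protected fragments (RPF, the stretches of mRNA covered by ribosomes) were sequenced. The labels number the libraries of each kind but do not say that those with the same number share a culture, nor that each comes from a separate mouse, so the spread between samples may be technical in part. Between 15079703 and 22629563 reads were counted on genes in the total RNA libraries, and between 4123271 (*Rnmt* cKO library 3) and 10661356 (control library 1) in the RPF libraries. Levels are given as CPM, read counts relative to library size, scaled for composition. CPM and fold changes are shares of the sequenced RNA, so a cell with less mRNA overall is not visible in them. In such bulk samples fewer cells of a type and less RNA per cell cannot be told apart.

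*Rnmt* itself followed the labels. Its total RNA was 95.5, 94.1 and 94.3 CPM in the control libraries and 29.3, 32.4 and 30.4 CPM in the *Rnmt* cKO libraries. Its RPF were 104, 87.9 and 98.9 CPM in controls and 10.5, 10.4 and 9.60 CPM in *Rnmt* cKOs. Of 7 CD4 T cell markers 3 decreased in total RNA and 4 in RPF (28.0% and 15.7% of all genes did), and their summed total RNA was 2720 to 2930 CPM in controls and 2090 to 2360 CPM in *Rnmt* cKOs. *Cd4* was at 316 to 350 CPM in control and 271 to 315 CPM in *Rnmt* cKO total RNA, and the 3 that decreased, *Cd3g* (-1.23 ± 0.11 on the log2 scale), *Lck* (-0.90 ± 0.06) and *Cd3d* (-0.74 ± 0.11), encode parts of T cell receptor signalling. Of 9 naive T cell markers 2 decreased and 2 increased in total RNA, near the shares of all genes (28.0% and 26.3%), and 4 decreased and 1 increased in RPF (15.7% and 14.1% of all genes). Of 6 activated T cell markers 4 increased in total RNA and 4 in RPF. The naive T cell marker *Dapl1* decreased by 3.11 ± 0.22 on the log2 scale in total RNA, from 33.4, 32.0 and 35.9 CPM to 3.39, 2.63 and 5.49 CPM. *Dapl1*, *Cd3g*, *Lck* and *Cd3d* were named after their values were seen. Of 6 B cell markers, all were detected at low levels, and their summed total RNA was 9.92, 6.25 and 35.6 CPM in controls and 91.9, 110 and 20.2 CPM in *Rnmt* cKOs. The *Rnmt* cKO libraries 1 and 2 therefore stood apart from the other 4, in RPF as well (139 and 151 CPM against 8.59 to 42.8 CPM). Values without these 2 libraries are given where a call of the 10 genes was lost, and for part of the other genes. In such values 1 *Rnmt* cKO library stands for the group.

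Selenocysteine is inserted at UGA, a codon that otherwise ends translation. A stem-loop in the 3′ end of the mRNA, the SECIS element, is bound by SECISBP2, and the elongation factor EEFSEC brings the selenocysteine tRNA to the ribosome. Where the UGA is read as a stop and lies well upstream of the last exon junction, the mRNA can become a target of nonsense-mediated decay. Selenoproteins are known in T cells chiefly for the control of peroxides, for redox signalling and for protein handling in the endoplasmic reticulum (ER).

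The codon that makes these genes a family is shown with 12 bases on each side, 5′ to 3′ on the coding strand, from the GENCODE vM21 transcripts (GRCm38, the build also called mm10). Capitals mark the Sec codon, the first of 10 in *Selenop* and the only Sec codon in the other 9 genes.
Selenop: cttcaagccagcTGAtacttgtgtctt
Selenow: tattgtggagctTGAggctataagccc
Selenok: atggctggtggaTGAggaaggtaaatg
Selenos: tcatctggcggcTGAaactaagactct
Selenot: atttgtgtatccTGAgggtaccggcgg
Selenof: gaagtctgcggaTGAaaattggggagg
Gpx1: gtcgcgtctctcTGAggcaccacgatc
Gpx4: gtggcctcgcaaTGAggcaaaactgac
Txnrd1: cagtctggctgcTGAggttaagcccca
Txnrd2: gtgactggttgcTGAggctaagtcacc

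The base after the Sec codon was G in 7 of the 10 genes, A in *Selenos* and *Selenof*, and T in *Selenop*. The 10 coding sequences fell into a group with the codon early or midway and a group of 4 with it within the last 3 codons. *Selenok* (codon 92 of 94), *Selenos* (189 of 190), *Txnrd1* (498 of 499) and *Txnrd2* (526 of 527) made up the second group, and in the last 3 of these the codon lay in the last exon. In the first group the codon was number 59 of 380 in *Selenop*, 13 of 88 in *Selenow*, 49 of 195 in *Selenot*, 93 of 162 in *Selenof*, 47 of 201 in *Gpx1* and 73 of 197 in *Gpx4*. The other 9 Sec codons of *Selenop*, from number 259 to number 377, all lay in its last exon. Read counts per gene do not show on which side of the codon a read fell.

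Across the 10 genes, total RNA of 6 decreased in *Rnmt* cKOs and that of 1 (*Selenos*) increased, with a median log2 fold change of -0.35. Of all 11519 genes tested, 28.0% decreased and 26.3% increased at an adjusted p under 0.05, with a median of 0.00. RPF of 3 genes decreased and of 2 increased (median -0.08), where 15.7% of 11428 genes decreased and 14.1% increased (median 0.01). Translational efficiency (TE), the change of RPF relative to that of total RNA, decreased for 1 gene and increased for none (median 0.19), where 6.57% of 10668 genes decreased and 3.24% increased (median 0.04). The library number was also used as a block, which pairs same-numbered total RNA and RPF libraries because they deviated together in the data. With it, TE decreased for 1 of the 10 genes and increased for 2, where 777 of all genes decreased and 426 increased. The groups did not overlap for 8 of the 10 genes in total RNA (6 lower and 2 higher in *Rnmt* cKOs) and for 6 in RPF (3 lower and 3 higher). Of all genes, 32.3% were lower and 30.0% higher without overlap in total RNA, and 24.3% and 22.2% in RPF. Since the genes were chosen with the genotype contrast in view, nothing is read from these counts.

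**Figure D1:**
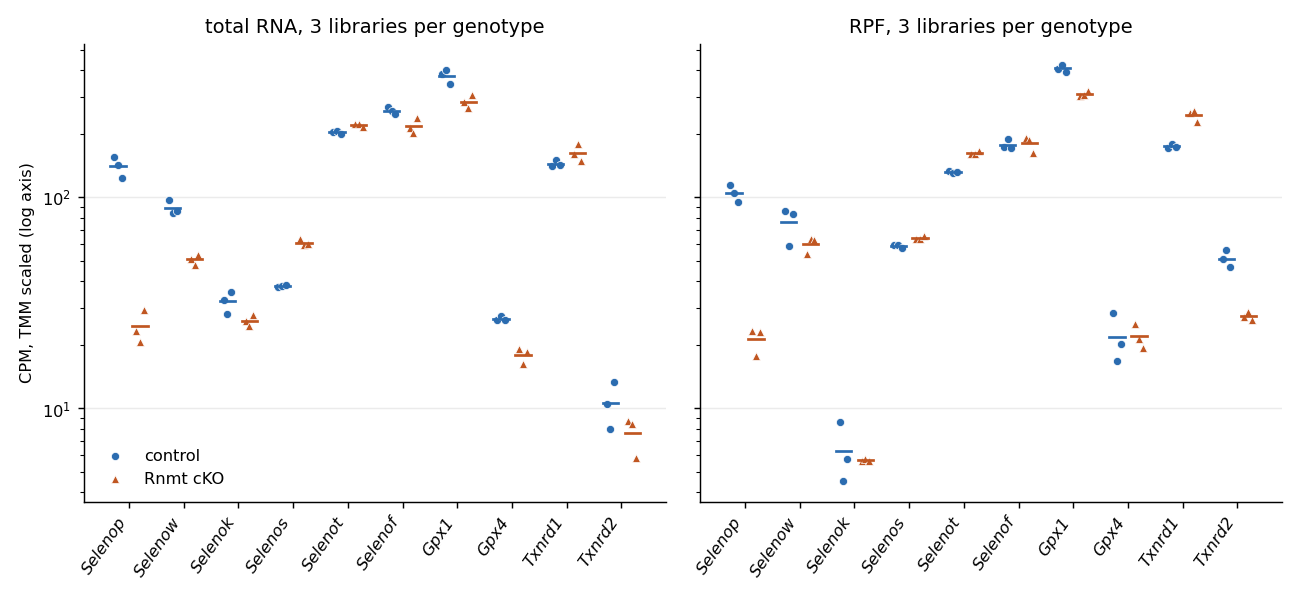
CPM (log axis) of the 10 genes in each library of total RNA (left) and RPF (right), with control libraries as circles, *Rnmt* cKO libraries as triangles and group means as lines. The genotypes are furthest apart for *Selenop*, and *Txnrd2* is separated in RPF (46.6 to 56.1 CPM against 26.3 to 28.8 CPM) but not in total RNA.

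*Selenop* (ENSMUSG00000064373, chr15:3268547-3280508, plus strand) encodes selenoprotein P, a secreted protein that carries selenium between tissues, and showed the largest change of the 10 genes. *Selenop* total RNA was 155, 142 and 124 CPM in controls and 23.4, 20.6 and 29.4 CPM in *Rnmt* cKOs. Its RPF were 114, 105 and 95.2 CPM in controls and 23.3, 17.8 and 23.1 CPM in *Rnmt* cKOs. Every *Rnmt* cKO library lay far below every control library in both kinds. The log2 fold change was -2.52 ± 0.14 (SE, n = 3 against 3) in total RNA, a level 5.72 times lower, and -2.31 ± 0.12 in RPF, 4.94 times lower. Ranked by log2 fold change from the lowest, *Selenop* was number 13 of 11519 genes in total RNA and number 20 of 11428 in RPF. TE differed by 0.20 ± 0.20 and did not pass. Without *Rnmt* cKO libraries 1 and 2 the changes were -2.23 ± 0.14 in total RNA and -2.18 ± 0.16 in RPF.

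*Selenop* is a gene of liver and, among immune cells, of macrophages, so markers of other cells were set beside it. Of 7 macrophage and monocyte markers, 6 (*Adgre1*, *Cd14*, *Csf1r*, *Itgam*, *Lyz2* and *Mrc1*) were below 1 CPM in all 12 libraries, and *Mrc1* had no read in total RNA. The most abundant of the list, *Cd68*, was at 0.864 to 1.56 CPM in total RNA. The summed list was 1.49, 1.16 and 1.02 CPM in control and 2.51, 1.29 and 1.12 CPM in *Rnmt* cKO total RNA. In RPF it was 4.79, 4.22 and 3.80 CPM in controls and 3.16, 3.42 and 2.46 CPM in *Rnmt* cKOs, lower in every *Rnmt* cKO library, and most of it was *Cd68* (2.21 to 4.41 CPM), whose change of -0.61 on the log2 scale did not pass. The part of these cells in the *Selenop* result was not tested. Of 4 stromal and endothelial markers, *Cdh5*, *Col1a1* and *Col1a2* were below 1 CPM throughout. The fourth, *Pecam1*, was at 72.0 to 88.8 CPM in control and 32.6 to 48.1 CPM in *Rnmt* cKO total RNA, and its log2 fold change was -0.91. Dendritic cell markers summed to 1.17 to 3.13 CPM in control and 6.35 to 12.4 CPM in *Rnmt* cKO total RNA, nearly all from *Zbtb46*, and *Xcr1* had no read in total RNA. The naive T cell marker *Dapl1* fell with *Selenop*, and by more, in total RNA (-3.11) and RPF (-3.23), and B cell markers differed between libraries as given above. The part of either in the *Selenop* result was not tested. Natural killer cell markers summed to 2.72 to 4.10 CPM and CD8 T cell markers to 9.85 to 41.7 CPM in total RNA, and of these 2 lists no gene tested passed the threshold between genotypes. The exons of *Selenop* share 439 bases with *Ccdc152* on the opposite strand, which strand-specific counting separates.

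Among 6674 genes averaging 4 or more in log2 CPM in each kind, those whose log2 CPM over the 12 libraries lay closest to that of *Selenop*, centred within each kind, were *Zfas1* (root mean square difference 0.211), *Ifi209* (0.247), *Snhg3* (0.312), *Snhg5* (0.336) and *Gas5* (0.369). GENCODE lists *Ifi209* as protein-coding and the other 4 as processed transcripts without a coding sequence. Since genotype dominates these profiles, likeness means mainly a decrease of similar size. The log2 fold changes in total RNA and RPF were -2.60 and -2.14 for *Zfas1*, -2.17 and -2.23 for *Ifi209*, and -2.23 and -1.53 for *Gas5*.

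**Figure D2:**
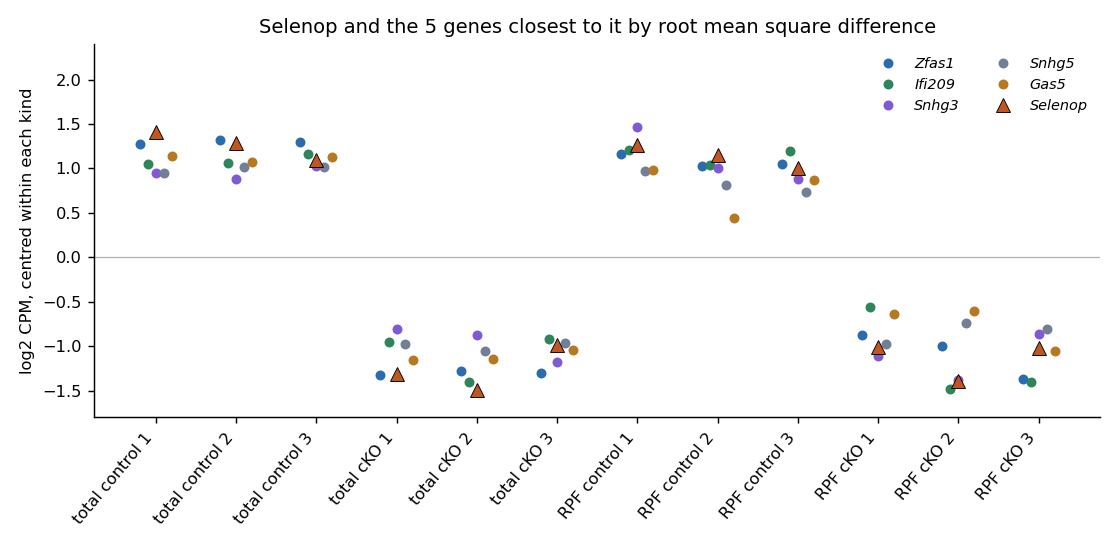
Log2 CPM centred within total RNA and within RPF for *Selenop* (triangles) and the 5 genes closest to it (circles), in each of the 12 libraries. All 6 genes lie above 0 in every control library and below 0 in every *Rnmt* cKO library.

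The small redox protein SELENOW is encoded by *Selenow* (chr7:15917208-15922402, minus strand, Sec codon at chr7:15920464-15920466). *Selenow* total RNA was 96.9, 84.1 and 85.9 CPM in controls and 51.1, 48.1 and 53.3 CPM in *Rnmt* cKOs. The decrease of -0.81 ± 0.08 on the log2 scale was the second largest of the 10 genes in total RNA, and the groups were clearly apart. In RPF the groups overlapped, with 86.1, 59.1 and 83.1 CPM in controls and 54.2, 63.4 and 63.0 CPM in *Rnmt* cKOs (log2 fold change -0.34 ± 0.14). Control library 2 was the low value in RPF, and without it the decrease in RPF passed the threshold. TE differed by 0.46 ± 0.17, which did not pass, and by 0.48 ± 0.13 with the library number as a block, which did.

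*Gpx1* and *Gpx4* encode glutathione peroxidases. GPX1 removes hydrogen peroxide, and GPX4 reduces lipid peroxides in membranes and so protects cells from ferroptosis. *Gpx1* (chr9:108338903-108340343, plus strand, Sec codon at chr9:108339451-108339453) had the highest CPM of the 10 genes, and its total RNA was 383, 402 and 345 CPM in controls and 282, 265 and 307 CPM in *Rnmt* cKOs. Its RPF were 408, 425 and 393 CPM in controls and 302, 305 and 321 CPM in *Rnmt* cKOs. Total RNA and RPF decreased by 0.40 ± 0.08 and 0.40 ± 0.06 on the log2 scale, with no overlap, and TE differed by 0.00 ± 0.10. Without *Rnmt* cKO libraries 1 and 2 the changes were -0.27 ± 0.10 and -0.35 ± 0.09, and neither passed.

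*Gpx4* (chr10:80047166-80056439, plus strand, Sec codon at chr10:80054737-80054739) was less abundant than *Gpx1* in controls, at 20.9 against 351 CPM per kilobase of exon in total RNA. *Gpx4* total RNA was 26.3, 27.3 and 26.3 CPM in controls and 19.1, 16.2 and 18.5 CPM in *Rnmt* cKOs, a decrease of 0.57 ± 0.09 on the log2 scale. Its RPF were 28.4, 16.7 and 20.2 CPM in controls and 25.2, 21.4 and 19.4 CPM in *Rnmt* cKOs. These overlapped (log2 fold change 0.01 ± 0.20), and the 3 control RPF libraries alone spanned the whole range of the *Rnmt* cKOs. TE differed by 0.58 ± 0.22, the largest positive value of the 10 genes, and did not pass. GENCODE names 1 *Gpx4* pseudogene, and reads that matched both places were dropped by the counting.

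The thioredoxin reductases pass electrons from NADPH to thioredoxin, TXNRD1 in the cytosol and TXNRD2 in mitochondria, and they moved in opposite directions in RPF. *Txnrd1* (chr10:82833951-82897712, plus strand, Sec codon at chr10:82896037-82896039) had RPF of 172, 180 and 173 CPM in controls and 250, 257 and 228 CPM in *Rnmt* cKOs, an increase of 0.49 ± 0.06 on the log2 scale. In its total RNA, 141, 151 and 142 CPM in controls overlapped with 160, 179 and 149 CPM in *Rnmt* cKOs (0.17 ± 0.07). TE differed by 0.32 ± 0.10, which passed only with the block (0.32 ± 0.08) among these 2 fits.

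*Txnrd2* (chr16:18426384-18479073, plus strand, Sec codon at chr16:18477772-18477774) had RPF of 51.2, 56.1 and 46.6 CPM in controls and 27.0, 28.8 and 26.3 CPM in *Rnmt* cKOs. This was a decrease of 0.90 ± 0.10 on the log2 scale, second to *Selenop* in RPF, and without *Rnmt* cKO libraries 1 and 2 the change was -0.96 ± 0.17. Its total RNA was low, with 10.5, 7.99 and 13.4 CPM in controls and 8.69, 8.41 and 5.83 CPM in *Rnmt* cKOs, and the groups overlapped (-0.48 ± 0.22). This total RNA decrease did pass without the filter on low counts (-0.50), and the change was -0.83 ± 0.28 without *Rnmt* cKO libraries 1 and 2. TE differed by -0.41 ± 0.25.

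Of the 10 genes, *Selenos*, 1 of the 4 whose products reside in the ER, had the most negative change of TE. *Selenos* (chr7:66079649-66089405, plus strand, Sec codon at chr7:66088844-66088846) encodes a membrane protein that helps to extract misfolded proteins from the ER. *Selenos* total RNA was 37.5, 37.9 and 38.3 CPM in controls and 63.3, 59.2 and 60.3 CPM in *Rnmt* cKOs. Its RPF were 59.4, 59.4 and 57.6 CPM in controls and 63.3, 63.3 and 65.7 CPM in *Rnmt* cKOs. The genotypes were therefore separate in both kinds, but by 0.68 ± 0.06 on the log2 scale in total RNA and 0.12 ± 0.07 in RPF, and only the first passed. TE decreased by 0.56 ± 0.08, and by 0.56 ± 0.10 with the block. Without *Rnmt* cKO libraries 1 and 2 it was -0.53 ± 0.13 and did not pass.

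*Selenot* (chr3:58576636-58593133, plus strand, Sec codon at chr3:58585238-58585240) encodes an ER protein with a thioredoxin-like fold. Its total RNA was 205, 206 and 200 CPM in controls and 224, 223 and 216 CPM in *Rnmt* cKOs, and its RPF were 133, 130 and 132 CPM and 160, 161 and 166 CPM. The groups were apart in both, with log2 fold changes of 0.12 ± 0.05, which did not pass, and 0.30 ± 0.05, which did. Without *Rnmt* cKO libraries 1 and 2 the RPF value was 0.33 ± 0.09 and did not pass. TE differed by 0.18 ± 0.07. GENCODE names 1 *Selenot* pseudogene.

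*Selenof* (chr3:144570304-144597680, plus strand, Sec codon at chr3:144590645-144590647) encodes a protein of the ER lumen that binds the folding sensor of glycoproteins. *Selenof* total RNA was 268, 258 and 248 CPM in controls and 214, 201 and 238 CPM in *Rnmt* cKOs. This decrease of 0.25 ± 0.07 on the log2 scale was small, and it did not pass without scaling for composition (-0.21), without control library 1 or 2 or *Rnmt* cKO library 1 or 2 singly (-0.17 to -0.25), or without *Rnmt* cKO libraries 1 and 2 together (-0.09 ± 0.08). In RPF, controls at 174, 189 and 171 CPM overlapped with *Rnmt* cKOs at 191, 187 and 163 CPM (0.02 ± 0.08).

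*Selenok* (chr14:29968308-29975662, plus strand, Sec codon at chr14:29973440-29973442) encodes an ER membrane protein that works with the palmitoyltransferase ZDHHC6 in immune cells. Its total RNA was 32.8, 28.1 and 35.8 CPM in controls and 26.0, 24.6 and 27.6 CPM in *Rnmt* cKOs (-0.31 ± 0.10), and its RPF were 8.64, 4.52 and 5.76 CPM and 5.62, 5.76 and 5.66 CPM (-0.17 ± 0.27). The decrease in total RNA passed, but not without control library 1 or 3 or *Rnmt* cKO library 1 or 2 singly (-0.23 to -0.30), nor without *Rnmt* cKO libraries 1 and 2 together (-0.20 ± 0.15), and the control RPF libraries alone spanned the *Rnmt* cKO values. GENCODE names 6 *Selenok* pseudogenes, so its unique reads may be only a part of its reads. How many were lost was not measured, and its level is uncertain.

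**Figure D3:**
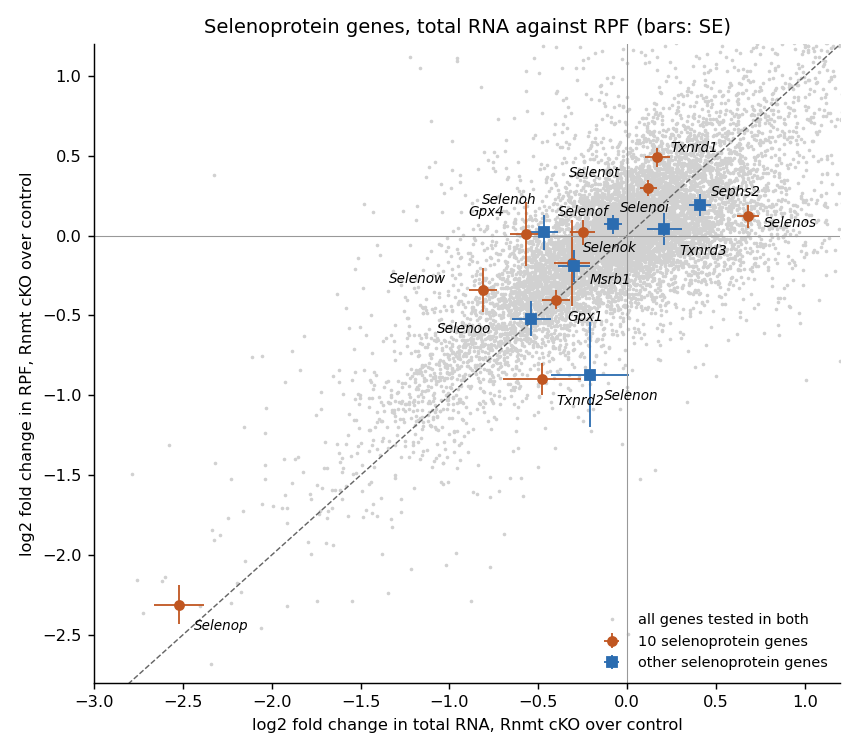
Log2 fold change of *Rnmt* cKO over control in total RNA (horizontal axis) and RPF (vertical axis) for the 10 genes (circles) and the 7 other selenoprotein genes tested in both (squares), with SE, over all genes tested in both (grey, within the range shown). Points on the dashed line changed equally in both kinds, *Selenop* lies at -2.52 and -2.31, and *Selenos* lies below the line at 0.68 and 0.12.

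Levels were compared between genes per kilobase, of exon for total RNA and of coding sequence for RPF. In control total RNA the order was *Gpx1* (351 ± 27.0 CPM per kilobase, SD, n = 3), *Selenof* (170 ± 6.48), *Selenow* (121 ± 9.45), *Selenop* (65.5 ± 7.20), *Selenot* (64.5 ± 0.942), *Txnrd1* (35.5 ± 1.28), *Selenos* (29.9 ± 0.321), *Gpx4* (20.9 ± 0.433), *Selenok* (19.2 ± 2.31) and *Txnrd2* (3.07 ± 0.780). The values of the 3 libraries overlapped between *Selenop* and *Selenot* and between *Gpx4* and *Selenok*, and no other neighbours overlapped. In *Rnmt* cKO total RNA *Selenop* was at 11.4 ± 2.10 CPM per kilobase, which moved it from rank 4 to rank 9, and there *Selenot* overlapped with *Selenow*, *Selenok* with *Gpx4*, and *Gpx4* with *Selenop*. In control RPF, *Gpx1* (678 ± 26.7 CPM per kilobase of coding sequence) and *Selenof* (367 ± 20.2) led again and *Selenok* (22.4 ± 7.49) was last. *Selenow* overlapped with *Selenot*, *Txnrd1* with *Selenop*, *Txnrd2* with *Gpx4*, and *Gpx4* with *Selenok*. In *Rnmt* cKO RPF *Gpx1* was at 514 ± 17.0 and *Txnrd2* at 15.6 ± 0.727, the lowest, and *Selenok*, *Selenop* and *Txnrd2* overlapped as neighbours. *Selenop* held 11.4, 10.6 and 9.87% of the summed total RNA CPM of the 10 genes in controls and 2.19, 1.97 and 2.66% in *Rnmt* cKOs.

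Footprint density, the log2 of RPF per kilobase of coding sequence over total RNA per kilobase of exon, differed widely among the 10 genes in controls. The lowest was *Selenok* (0.17 ± 0.41, SD, n = 3, percentile 13.4 of 10055 genes), followed by *Gpx4* (0.27 ± 0.41, percentile 15.2) and *Selenop* (0.49 ± 0.03, percentile 20.6), but the libraries of these 3 genes overlapped, so their order is not resolved. The highest was *Txnrd2* (3.28 ± 0.50, percentile 95.5), followed by *Selenot* (1.80 ± 0.03, percentile 69.0) and *Selenos* (1.79 ± 0.04, percentile 68.4), which overlapped with *Selenot*. The median percentile of the 10 genes was 44.1 in controls and 48.5 in *Rnmt* cKOs, so as a set they lay near the middle of all genes. *Selenos* moved from percentile 68.4 to 45.8 in *Rnmt* cKOs, and *Selenow* from 46.9 to 65.6.

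**Figure D4:**
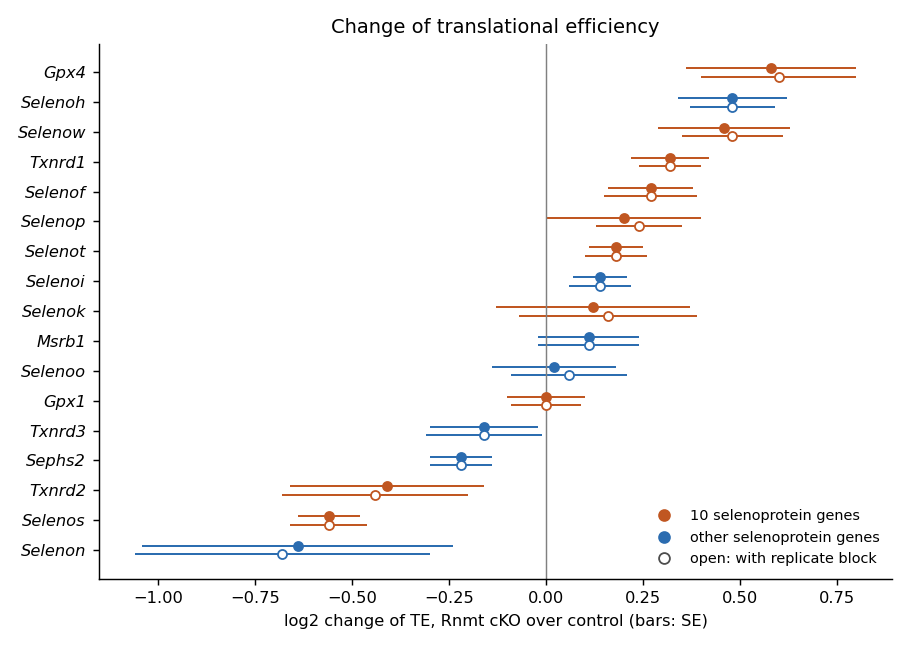
Log2 change of TE in *Rnmt* cKOs for the 17 selenoprotein genes tested, with SE, from the fit without (filled) and with (open) the library number as a block. *Selenos* lies at -0.56 in both, and *Gpx1* at 0.00.

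Of the 14 other selenoprotein genes, 8 were tested in each kind and 7, found in both, for TE. In total RNA 3 decreased and 2 increased, in RPF 1 decreased and none increased (28.0%, 26.3%, 15.7% and 14.1% of all genes, in that order), and for TE no gene passed (quasi-likelihood test of edgeR, Benjamini-Hochberg adjusted). *Selenoh*, which encodes a nuclear redox protein, decreased by 0.47 ± 0.08 on the log2 scale in total RNA (adjusted p = 0.0017). Its RPF were 79.4, 89.5 and 80.9 CPM in controls and 92.7, 70.9 and 89.3 CPM in *Rnmt* cKOs (0.02 ± 0.11), which overlapped, and its TE differed by 0.48 ± 0.14 (adjusted p = 0.051, and 0.016 with the block). *Selenoo*, for a mitochondrial AMPylase, decreased in total RNA (-0.54 ± 0.11, adjusted p = 0.0035) and RPF (-0.52 ± 0.11, adjusted p = 0.011), and its exons share 998 bases with *Tubgcp6* on the opposite strand. *Msrb1*, for a methionine sulfoxide reductase, decreased in total RNA (-0.30 ± 0.09, adjusted p = 0.022). Neither *Selenoo* nor *Msrb1* passed without *Rnmt* cKO libraries 1 and 2 (-0.30 and -0.18 in total RNA, -0.59 for *Selenoo* in RPF).

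*Sephs2*, itself a selenoprotein gene, encodes the synthetase that makes selenophosphate, the selenium donor for selenocysteine. It increased in total RNA (95.0, 92.6 and 88.2 CPM in controls, 121, 118 and 126 CPM in *Rnmt* cKOs; 0.41 ± 0.06, adjusted p = 0.00063), and its RPF differed by 0.19 ± 0.07 (adjusted p = 0.077). The exons of *Sephs2* share 792 bases with *Gm44729* on the opposite strand, and counts made without regard to strand kept a fraction of only 0.634 to 0.674 of its total RNA reads and 0.173 to 0.265 of its RPF. *Dio2*, for an enzyme that activates thyroid hormone, increased in total RNA (1.54 ± 0.27, adjusted p = 0.0020), but from 0.424 to 0.701 CPM in controls to 1.30 to 1.65 CPM in *Rnmt* cKOs. *Selenoi*, *Selenon* and *Txnrd3* passed in no comparison, with log2 fold changes in total RNA of -0.08 ± 0.05, -0.21 ± 0.22 and 0.21 ± 0.10. *Gpx3* was tested in RPF only (0.67 ± 1.08), where control library 1 had no read. *Dio1*, *Dio3*, *Gpx2*, *Selenom* and *Selenov* were under the filter in both kinds, with at most 0.492 CPM in any library.

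Position of the Sec codon was set beside the fold changes after these had been seen, as a description, and 10 of the genes were themselves chosen with fold changes known, so nothing is read from the counts. In 8 of the 17 genes tested in both kinds the first Sec codon lies more than 50 bases upstream of the last exon junction. Of these 8, total RNA of 6 (*Selenop*, *Selenow*, *Selenof*, *Gpx1*, *Gpx4* and *Selenoh*) decreased and that of none increased, with a median log2 fold change of -0.44 and a range of -2.52 to 0.12. Of the 9 genes with the codon nearer to that junction, after it, or without a junction, 3 (*Selenok*, *Msrb1* and *Selenoo*) decreased and 2 (*Selenos* and *Sephs2*) increased, with a median of -0.08 and a range of -0.54 to 0.68. Over all genes 28.0% decreased and 26.3% increased in total RNA. In RPF 2 genes decreased and 1 increased in each group, beside 15.7% and 14.1% of all genes. *Selenot*, whose codon lies 473 bases upstream, the furthest of the 17, was at 0.12 in total RNA.

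Starts of the 10 genes were also read for a TOP-like sequence, the pyrimidine run with a leading C that is typical of ribosomal protein mRNAs. The motif was a C at the annotated start followed by at least 4 bases that are C or T on the coding strand. In RefSeq (GRCm38.p6) none of the 17 annotated starts of the 10 genes held it, beside 2.51% of 32851 starts of all genes. At such a share so few starts would often hold none, and several belong to the same gene, so nothing is read from this. A C as the first base occurred at 3 of the 17 starts (17.6%), in *Selenow*, *Gpx4* and *Txnrd1*, and at 16.3% of all starts. *Selenow* and *Txnrd1* have a run of 1 pyrimidine there and *Gpx4* of 3. An annotated start need not be the one used in T cells.

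The factors that make and decode selenocysteine had log2 fold changes from -0.82 to 0.27 in total RNA. Of 11 such genes, 5 decreased and 3 increased in total RNA (median -0.09), 1 decreased and 1 increased in RPF (median -0.14), and 1 increased in TE. Of all genes, 28.0% decreased and 26.3% increased in total RNA, 15.7% and 14.1% in RPF, and 3.24% increased in TE, so the share that increased in total RNA was near that of all genes. The largest decrease was in *Trnau1ap*, for a protein associated with the selenocysteine tRNA, with 78.2, 75.2 and 70.1 CPM in control and 41.3, 41.4 and 43.9 CPM in *Rnmt* cKO total RNA (-0.82 ± 0.07, adjusted p = 4.9e-05). *Trnau1ap* RPF decreased as well (-0.46 ± 0.08, adjusted p = 0.0038) and its TE increased (0.35 ± 0.10, adjusted p = 0.040), which did not pass with the block (0.36). *Scly*, whose enzyme recovers selenium from selenocysteine, decreased in total RNA (-0.79 ± 0.12, adjusted p = 0.0010), as did *Sars* (-0.35 ± 0.08, adjusted p = 0.0060), which charges the selenocysteine tRNA with serine, and *Pstk* (-0.35 ± 0.13, adjusted p = 0.045), which phosphorylates that serine. The call of *Pstk* was lost when any 1 of the control libraries, or *Rnmt* cKO library 1 or 2, was left out. *Secisbp2* was at 63.3 to 66.9 CPM in control and 65.4 to 66.0 CPM in *Rnmt* cKO total RNA (0.01 ± 0.05), and its RPF increased slightly (0.24 ± 0.08, adjusted p = 0.049). *Eefsec*, named after its values were seen, decreased in total RNA (-0.34 ± 0.07, adjusted p = 0.0030). The 3 that increased in total RNA, also named afterwards, were *Sephs1* (0.27 ± 0.07), *Sepsecs* (0.22 ± 0.06) and *Trit1* (0.22 ± 0.07).

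Of 4 proteins that compete with or aid SECISBP2, *Ncl* (0.73 ± 0.20, adjusted p = 0.016) and *Elavl1* (0.65 ± 0.15, adjusted p = 0.0069) increased and *Rpl30*, a ribosomal protein that binds the SECIS element, decreased (-0.57 ± 0.07, adjusted p = 0.00037) in total RNA, where 26.3% of all genes increased and 28.0% decreased. The fourth, *Eif4a3*, did not pass in total RNA (0.08 ± 0.06, adjusted p = 0.25) and increased in RPF (0.33 ± 0.08, adjusted p = 0.015, where 14.1% of all genes increased), which did not pass without control library 2, without *Rnmt* cKO library 1 (0.29 each) or without *Rnmt* cKO libraries 1 and 2 (0.17). TE of *Ncl* decreased (-0.86 ± 0.24, adjusted p = 0.036) and TE of *Rpl30* increased (0.67 ± 0.17, adjusted p = 0.025). TE of *Elavl1* differed by -0.58 ± 0.17 (adjusted p = 0.054), and with the block it passed (-0.57 ± 0.15, adjusted p = 0.031). Total RNA of *Ncl* was high in the *Rnmt* cKO libraries 1 and 2 (964 and 1050 CPM, with 457 to 650 CPM in the other 4), and neither *Ncl* nor *Elavl1* passed in total RNA without them (0.27 and 0.34), nor did the TE of *Ncl* (-0.56) or *Rpl30* (0.29). Of the 3 receptors of selenoprotein P, *Lrp1* increased in total RNA from 1.01, 0.688 and 0.916 CPM to 4.89, 6.14 and 5.27 CPM (2.64 ± 0.20, adjusted p = 3.7e-05) and in RPF (3.43 ± 0.40, adjusted p = 0.00068), from few reads. *Lrp8* was at 7.06 to 8.68 CPM in control and 5.75 to 12.4 CPM in *Rnmt* cKO total RNA (0.29 ± 0.26, adjusted p = 0.38), and *Lrp2* had reads in 1 of the 6 total RNA libraries.

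Of the 8 relatives that do the work of selenoproteins without selenium, 3 were tested in total RNA, too few to set beside the shares of all genes. *Msrb2* (-1.05 ± 0.16, adjusted p = 0.0011) and *Msra* (-0.63 ± 0.09, adjusted p = 0.00068), both methionine sulfoxide reductases, decreased and *Gsr*, glutathione reductase, increased (0.24 ± 0.06, adjusted p = 0.013). Among 21 tested genes of the thioredoxin and glutathione systems, 6 decreased and 4 increased in total RNA (median -0.07), and 4 decreased and 4 increased in RPF (median -0.05), beside 28.0% and 26.3% of all genes in total RNA and 15.7% and 14.1% in RPF, so the decreases in total RNA were near the share of all genes. The glutaredoxin *Glrx* decreased in total RNA (-0.95 ± 0.09, adjusted p = 0.00012) and RPF (-0.82 ± 0.09, adjusted p = 0.00064), and so did catalase, *Cat* (-0.62 ± 0.08, adjusted p = 0.00047, and -0.64 ± 0.07, adjusted p = 0.00046). *Gss*, for glutathione synthetase, increased in total RNA (0.78 ± 0.11, adjusted p = 0.00068), and its TE decreased (-0.49 ± 0.14, adjusted p = 0.043). This TE call was lost when control library 1 or 2, or any 1 of the *Rnmt* cKO libraries, was left out. In RPF the thioredoxin gene *Txn1* increased (0.34 ± 0.08, adjusted p = 0.016), a call lost without control library 2 or 3 or *Rnmt* cKO library 2. *Txn2*, another thioredoxin gene of the list, named after its values were seen, decreased in RPF (-0.22 ± 0.06, adjusted p = 0.023).

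Of 6 tested genes of the NRF2 pathway, which induces *Txnrd1* in oxidative stress, 5 increased and 1 decreased in total RNA (median 0.51), and 3 increased in RPF (median 0.56), where 26.3%, 28.0% and 14.1% of all genes did so. The increases in total RNA were in *Hmox1*, *Maff*, *Keap1*, *Mafg* and *Mafk*. The decrease was in *Nfe2l2*, the gene for NRF2 itself, named after its values were seen (-0.33 ± 0.08, adjusted p = 0.0097). *Nqo1*, also of this list, was under the filter in both kinds. The part of this pathway in the *Txnrd1* result was not tested. Of the RPF increases, *Hmox1* (0.64) did not pass whichever of the 6 libraries was left out, and *Mafg* (0.62) did not pass without control library 1 or 3 or *Rnmt* cKO library 2. *Hmox1*, for heme oxygenase 1, was low and increased in total RNA (0.796, 0.476 and 1.02 CPM against 1.49, 1.91 and 1.43 CPM; 1.07 ± 0.29, adjusted p = 0.016). *Keap1*, for the inhibitor of NRF2, increased in total RNA (0.60 ± 0.06, adjusted p = 0.00013) and decreased in TE (-0.47 ± 0.09, adjusted p = 0.0046). Of 6 tested genes of lipid peroxidation and ferroptosis, the process GPX4 guards against, 3 decreased and 1 increased in total RNA (median -0.23), beside 28.0% and 26.3% of all genes. These were *Gch1* (-0.39 ± 0.13, adjusted p = 0.030), *Lpcat3* (-0.35 ± 0.09, adjusted p = 0.010), *Ftl1* (-0.27 ± 0.08, adjusted p = 0.017) and, upward, *Fth1* (0.56 ± 0.20, adjusted p = 0.043). The genotypes overlapped for *Fth1*, which did not pass without *Rnmt* cKO libraries 1 and 2 (0.16). Calls of *Gch1*, *Ftl1* and *Fth1* were each lost when control library 1, or *Rnmt* cKO library 1 or 2, was left out singly.

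Of 11 tested ER quality control partners, 3 increased and none decreased in total RNA (median 0.01), and 1 increased in RPF (median 0.08). Of all genes 26.3% increased in total RNA and 14.1% in RPF, so the total RNA count was near the share of all genes and the RPF count was not above it. *Nploc4*, whose product works with the segregase that SELENOS recruits, had 105, 109 and 112 CPM in control and 188, 193 and 188 CPM in *Rnmt* cKO total RNA (0.80 ± 0.05, adjusted p = 1.9e-05). Its RPF were 141, 144 and 125 CPM in controls and 137, 148 and 137 CPM in *Rnmt* cKOs (0.04 ± 0.07, adjusted p = 0.71), and TE decreased by 0.76 ± 0.09 (adjusted p = 0.00018), as it did for *Selenos*. *Derl2*, for a derlin of the same membrane machinery (0.29 ± 0.06, adjusted p = 0.0048), and *Zdhhc6*, for the partner of SELENOK (0.39 ± 0.06, adjusted p = 0.0010), increased in total RNA.

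By the rule that names up to 4 genes per list and comparison, 47 values of pathway genes passed the threshold, and 23 of these did not pass without *Rnmt* cKO libraries 1 and 2. In total RNA these were *Sars* (-0.20), *Pstk* (-0.10), *Gch1* (-0.35) and *Ftl1* (-0.18), in addition to those above. In RPF they included *Trnau1ap* (-0.51), *Secisbp2* (0.19) and *Txn1* (0.23), and in TE *Trnau1ap* (0.23), *Gss* (-0.62) and *Keap1* (-0.57). Leaving out single libraries lost 18 of the 47 calls at least once, among them *Ncl* and *Gsr* in total RNA without control library 1 or 2, *Txn1* in RPF without control library 2 or 3 or *Rnmt* cKO library 2, and *Secisbp2* in RPF whichever of the 6 was left out. None of the 47 values changed sign under any alternative run.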

How the data were processed

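Total cytoplasmic RNA and RPF of 3 control and 3 *Rnmt* cKO samples gave 12 libraries. Per the study's methods and the submitters' processing notes, the authors used second reads only, trimmed them with Cutadapt, discarded rRNA and tRNA matches with Bowtie, aligned to mm10 with STAR 2.5.2b and deposited counts per gene from unique alignments. The authors also deposited a table of normalized signal values per library, used here to find the strand (counts of the reverse strand matched it to a single factor per library for 100% of genes, within 1e-06). Its columns of the authors' own fold changes and p-values were not used. Duplicate reads were not removed.

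Genes over a CPM of 1 in 3 or more of the 6 libraries of a kind (both kinds for TE) were tested after TMM scaling by edgeR's quasi-likelihood method (version 4.0.16, R 4.3.3). For TE, an interaction term between genotype and kind was fitted over 12 libraries. P-values were adjusted by Benjamini-Hochberg over all genes, threshold 0.05. SE were derived from the F statistic, and printed CPM are TMM-scaled. The scripts were tested on simulated counts. Same-numbered total RNA and RPF libraries of a genotype deviated together (correlations of 0.113 to 0.378), so TE was also fitted with that number as a block. Alternatives were no TMM, DESeq2 1.42.0, the exact test of edgeR, no filter, at least 10 counts in every library, both strands, each replicate left out, a replicate block, longest-transcript lengths and, chosen after the data were seen, leaving out *Rnmt* cKO libraries 1 and 2. Annotation was GENCODE vM21 (the authors used vM12) and RefSeq.

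The 10 genes and all lists were chosen with earlier results of these data known. Named are the 10 genes, the 14 other selenoprotein genes, *Rnmt*, up to 4 genes past the threshold with the largest change per list and comparison, the 5 genes closest to *Selenop*, and of markers the most abundant and defining genes. RiboDiff, which the study used for TE, was not used here. Protein sequences were not used here.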

Additional observations from a re-analysis of the deposited data

Results flagged for a closer look

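The genotype difference of *Selenos* differed between RPF and total RNA by -0.56 ± 0.08 on the log2 scale, by the interaction term over 12 libraries. Total RNA was higher in *Rnmt* cKOs by 0.68 ± 0.06 and RPF by 0.12 ± 0.07, and all 3 *Rnmt* cKO libraries were above all 3 control libraries in both kinds. *Selenos* was among the genes chosen with earlier results known, so this value is a description.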

How the results depend on the processing

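With RPF depth between 4123271 and 10661356 counted reads, low genes such as *Selenok* were imprecise in RPF (SE 0.27), and the intervals cover counting and the spread between 3 libraries only. Of the alternatives that kept all libraries, the counts of the 10 genes that passed were within 1.5 times of those reported in total RNA and RPF. In TE the number that increased was 0 as reported, 1 with DESeq2 (*Txnrd1*) and 2 with the replicate block (*Selenow* and *Txnrd1*). Over all genes, TE increases were 346 as reported, 396 with DESeq2, 426 with the replicate block and 214 without the filter on low counts. With each replicate left out, 4 to 6 of the 10 genes decreased and 1 to 3 increased in total RNA, 3 to 4 decreased and 2 increased in RPF, and 1 decreased and 0 to 1 increased in TE. Over all genes, 2585 to 3151 decreased and 2303 to 3145 increased in total RNA, 1264 to 1526 decreased and 1085 to 1414 increased in RPF, and for TE the ranges were 415 to 812 and 122 to 367. Without *Rnmt* cKO libraries 1 and 2, an alternative chosen after the data were seen that leaves 1 *Rnmt* cKO library assumed to vary like the controls, 4 of the 10 genes decreased and 1 increased in total RNA, 2 decreased and 1 increased in RPF, and 0 decreased and 0 increased in TE. Over all genes RPF then had 520 decreases and 477 increases, and TE 294 and 81. The causes were not tested.

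Values that changed sign were past no threshold. In RPF, *Selenof* was at -0.01 and *Gpx4* and *Selenoh* at -0.02 each without the filter, *Sephs2* at -0.06 with both strands, and *Selenof* at -0.13 and *Gpx4* at -0.18 without *Rnmt* cKO libraries 1 and 2. In TE without these 2 libraries, *Selenok* was at 0.00, *Selenof* at -0.04, *Gpx1* at -0.07, *Msrb1* at -0.13 and *Selenoo* at -0.28, and *Gpx1* was at 0.00 without TMM and with DESeq2. With each replicate left out, RPF values ranged from -0.35 to 0.13 for *Selenok*, -0.02 to 0.09 for *Selenof*, -0.14 to 0.25 for *Gpx4*, -0.01 to 1.47 for *Gpx3*, -0.06 to 0.14 for *Selenoh* and -0.01 to 0.11 for *Txnrd3*. TE values ranged from -0.04 to 0.42 for *Selenok*, -0.04 to 0.03 for *Gpx1* and -0.09 to 0.17 for *Selenoo*. The decrease of *Selenok* in total RNA did not pass without control replicate 1 or 3 or *Rnmt* cKO replicate 1 or 2 (-0.23 to -0.30). Some values that did not pass as reported did so with a library left out: in total RNA *Selenot* and *Txnrd1* without *Rnmt* cKO replicate 3 (0.15 and 0.24) and *Txnrd2* without control replicate 2 (-0.65), in RPF *Selenow* without control replicate 2 (-0.50), and in TE *Gpx4* without control replicate 1 (0.83), *Selenof* without *Rnmt* cKO replicate 3 (0.40) and *Txnrd1* without *Rnmt* cKO replicate 2 (0.35). With all libraries kept, *Txnrd2* in total RNA (-0.50) and *Selenow* in RPF (-0.38) passed without the filter on low counts.

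Numbers shared by control and *Rnmt* cKO libraries did not pair them (correlations of -0.524 to 0.145). With those numbers as a replicate block, 5 of the 10 genes decreased and 1 increased in total RNA (*Selenof* no longer passed, at -0.25) and 3 decreased and 2 increased in RPF. Over all genes, 2751 decreased and 2455 increased in total RNA with this block, and 1636 decreased and 1596 increased in RPF. The median percentile of footprint density was 46.3 with the longest transcript and 42.3 to 45.3 without each control replicate.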
